A study of Cavia porcellus with 35 samples.

Results

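The 39 genes followed here are widely used targets of the glucocorticoid receptor, taken as a list of symbols. Of the 39, 29 were listed in at least 1 of the 4 count tables, among 12097 gene symbols in all. F1 females and F2 females had 28 of them, since ANGPTL4 was not listed there, and F3 females and F1 males had 29. Every listed member passed the filter on low counts and was tested in its table. The serum- and glucocorticoid-induced kinase SGK1, the transcription factor CEBPD, the small GTPase RHOB, the lipid droplet protein PLIN4, the sulfotransferase SULT1A1, the siderophore-binding LCN2, the insulin receptor substrate IRS2, METTL7A, the metallothionein MT2A and the tyrosine aminotransferase TAT were listed in no table and were not analysed here.

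Glucocorticoids pass into cells and bind the glucocorticoid receptor (NR3C1), which is held in the cytoplasm by heat shock protein chaperones. The bound receptor moves to the nucleus and activates genes through glucocorticoid response elements, or restrains inflammatory and growth genes. In the brain its targets include feedback inhibitors of the receptor, dampers of inflammatory signalling, brakes on growth signalling and switches of fuel use, and they are used as a readout of recent hormone exposure.

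RNA had been sequenced from punches of the medial prefrontal cortex (PFC) of 35 juvenile guinea pigs (Cavia porcellus) killed on postnatal day 40, with 1 library per animal. Pregnant dams had received repeated courses of betamethasone, a synthetic glucocorticoid (sGC), or saline late in gestation, so that F1 offspring were exposed as fetuses and were untreated themselves. The F2 and F3 animals belong to the paternal line, with unexposed mothers, and their groups are named by what the founding dam had been given. There were 4 control and 4 sGC females in each of the F1, F2 and F3 generations, and 5 control and 6 sGC F1 males. The RNA extraction text of the labels names the paraventricular nucleus of the hypothalamus, whereas the source label and the methods name the prefrontal cortex. Summed over the 5 listed markers of that nucleus (AVP, OXT, CRH, SIM1 and MC4R, without CRH in F3 females), libraries held 7.44 to 21.4 counts per 1000000 counts of the library (CPM), against 2618 to 8048 CPM for 7 excitatory cortical neuron markers.

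Total counts were 12819964 to 19551079 in the females and 25697953 to 31763585 in the males, so that the male values rest on more reads. Female and male libraries therefore differed in sex, table and depth together, which cannot be told apart. Levels are given as CPM after TMM scaling within each table, and all log2 fold changes are sGC minus control. Punches are mixtures of cell types, and a lower level can mean fewer cells of a type or less RNA per cell, which cannot be told apart in bulk samples. Marker levels of several cell types moved with treatment. Summed over 8 listed striatal neuron markers, F1 female controls held 2709.9, 594, 923 and 2569 CPM and F1 sGC females 290.1, 249, 323 and 628 CPM. Controls 1 and 4 stood far above the other animals. Of these 8 markers, 5 were lower in F1 sGC females at FDR < 0.05, and 6 of 7 excitatory cortical neuron markers were higher at an unadjusted p below 0.05 with 0 passing the FDR. Oligodendrocyte markers had a median log2 fold change of -0.72 in F1 females (0 of 10 passing the FDR, 4 lower at an unadjusted p below 0.05), 1.02 in F2 females (0 of 10 passing, 8 higher at an unadjusted p below 0.05), 0.34 in F3 females (0 of 9 passing, 1 higher at an unadjusted p below 0.05) and 0.95 in F1 males (10 of 10 higher at FDR < 0.05). Of the astrocyte markers, 3 of 9 were lower in F1 sGC females and 1 of 8 was higher in F1 sGC males, with 0 of 9 passing in F2 or F3 females. Of 6 oligodendrocyte precursor markers, 6 were lower in F1 females at an unadjusted p below 0.05 with 0 passing the FDR, and 4 were higher in F1 males at FDR < 0.05. The part of these shifts in the results below was not tested except where a value is given.

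In F1 females, 7 of 28 glucocorticoid target genes were differentially expressed between sGC and control offspring (edgeR quasi-likelihood test, FDR < 0.05 over all genes). The regulatory subunit PIK3R1 was up-regulated, and KLF15, FOXO1, DDIT4, SESN1, TIPARP and MKNK2 were down-regulated. Over all 11268 genes tested, 9.21% were higher and 7.33% were lower in sGC females. The share of members that was lower (6 of 28) was above the background. The share that was higher (1 of 28) rests on 1 gene and is not read as a difference from it. The list was chosen with earlier results of these data known, so no set test was run. With F1 controls 1 and 4 left out, an alternative added after the data were seen that leaves 2 controls, 7 of 28 passed, beside 15.1% of all genes. FOXO1 and MKNK2 were replaced by PDK4 and MAP3K6, both lower. The controls that stayed, 2 and 3, had the highest oligodendrocyte marker sums of the F1 females. These were 16303 and 10439 CPM, against 3791 to 7671 CPM in F1 sGC females, and their part in the calls was not tested. The median log2 fold change of the members was -0.23, beside -0.03 over all genes, and it was -0.15 without control 1. The groups did not overlap for 9 of 28 members, beside 23.2% of all genes.

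F1 males gave the other direction. Of 29 members, 4 were differentially expressed and all 4 were up-regulated in sGC males: CDKN1A, PDK4, TXNIP and MAP3K6. Over the 11524 genes tested in males, 5.74% were higher and 3.48% were lower. The log2 fold change was above 0 for 22 of 29 members, beside 50% of all genes, and its median was 0.11, beside -0.00 over all genes. For 3 members the male groups did not overlap, beside 6.26% of all genes.

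No member passed the FDR in F2 or F3 females by the quasi-likelihood test. In F2 females 3 of 28 members had an unadjusted p below 0.05 (MAP3K6 higher, ZBTB16 and PIK3R1 lower), beside 16.1% of all genes, and 0.278% of all genes passed the FDR. The likelihood ratio test and DESeq2 each called 1 F2 member, MAP3K6, beside 4.8% and 4.25% of all genes. The quasi-likelihood test called MAP3K6 too without F2 control 1 or without F2 sGC 2, beside 2.19% and 4.36% of all genes. In F3 females 7 of 29 members had an unadjusted p below 0.05 (ADARB1 and RASD1 higher, KLF15, FOXO1, HIF3A, NEDD9 and SESN1 lower), beside 17.3% of all genes, and 1.34% of all genes passed the FDR. The same other tests each called 3 F3 members, namely FOXO1, ADARB1 and RASD1, beside 5.39% and 5.53% of all genes. Without F3 control 1 the quasi-likelihood test called 2 members, FOXO1 and TXNIP, beside 5.22% of all genes. The groups did not overlap for 2 of 28 members in F2 females and 5 of 29 in F3 females, beside 8.09% and 10.3% of all genes.

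**Figure D1:**
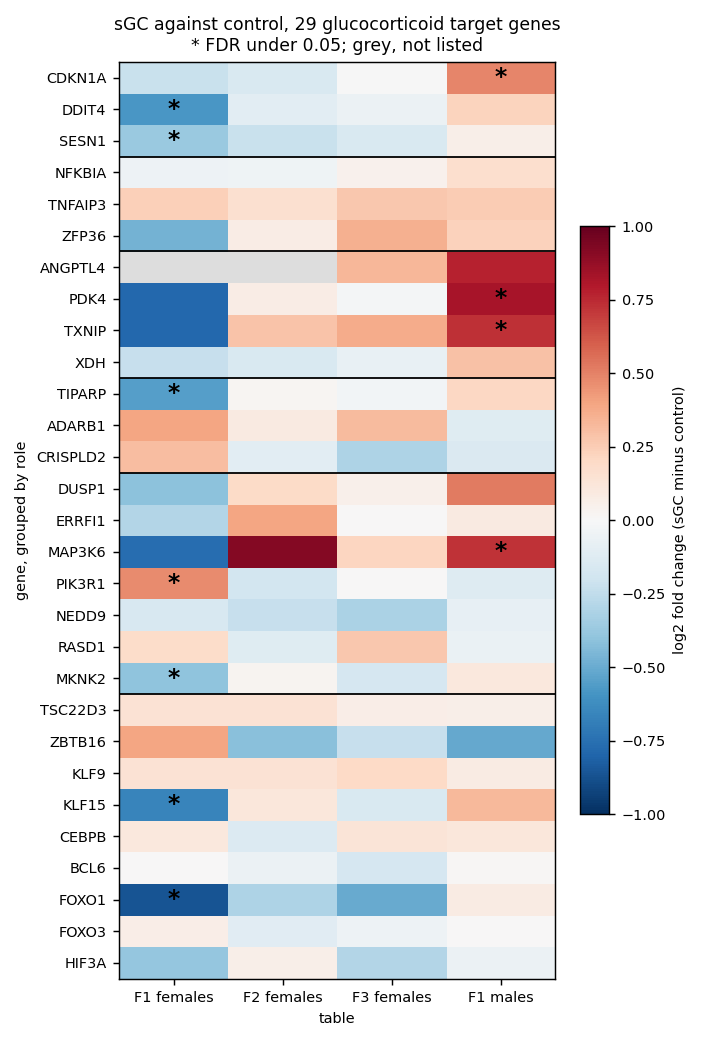
Heat map of the log2 fold change (sGC minus control) of the 29 members, with genes in rows grouped by role, the 4 tables in columns, a star where the FDR is below 0.05 and grey where a gene is not listed. The F1 female column holds 6 starred blue cells and 1 starred red cell, the F1 male column holds 4 starred red cells, and the F2 and F3 columns hold no star.

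The response itself differed between the sexes for many members. The interaction of treatment with sex passed FDR < 0.05 for 14 of 28 members in F1 offspring, beside 31.7% of all genes. For 11 of these 14 the male response was the more positive: DUSP1, KLF15, CDKN1A, DDIT4, PDK4, TXNIP, MAP3K6, TIPARP, FOXO1, SESN1 and MKNK2. For ZBTB16, PIK3R1 and ADARB1 it was the more negative. Fold changes had the same sign in both sexes for 8 of 28 members (28.6%), near the 34.7% of all genes. By the quasi-likelihood test 0 of 28 members passed the FDR in both sexes, and 245 of the 10725 genes tested in all 4 tables did, so that a count of 0 among 28 is near the background. By the likelihood ratio test and by DESeq2, KLF15, DDIT4 and PDK4 passed in both sexes, lower in F1 sGC females and higher in F1 sGC males. The share of all genes passing in both sexes by those tests was not counted, so these calls are not read as a trait of the members. Opposite signs in the sexes were also common over all genes, of which 34.7% had the same sign by the quasi-likelihood fits.

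**Figure D2:**
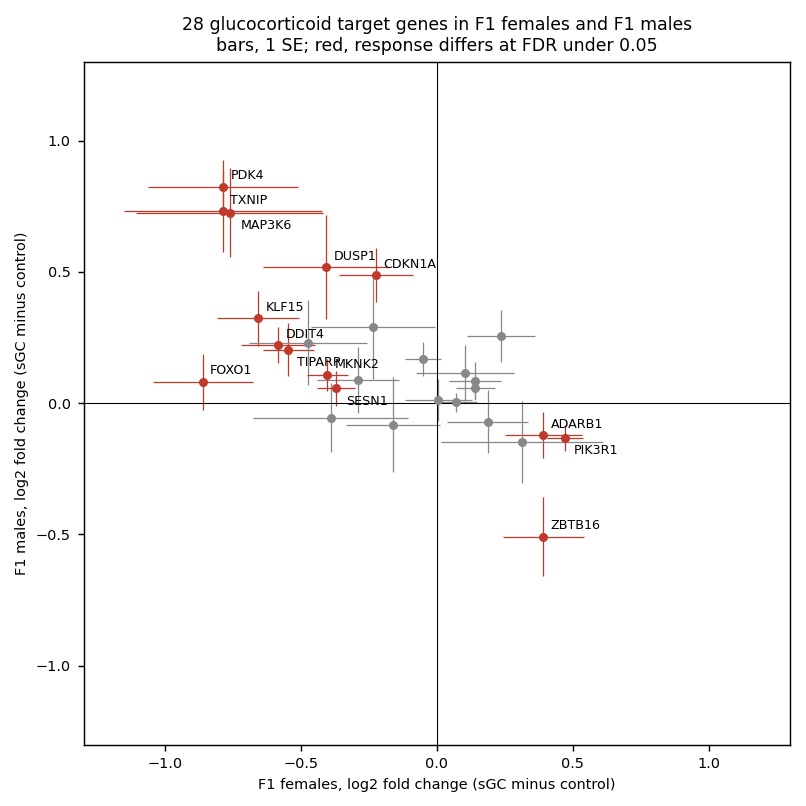
Log2 fold change (sGC minus control) of 28 members in F1 females (horizontal axis) and F1 males (vertical axis), with bars of 1 SE and the 14 members whose response differed between the sexes in red. The red points lie at the upper left and lower right, from PDK4 at -0.79 in females and 0.82 in males to ZBTB16 at 0.39 in females and -0.51 in males.

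Across generations the responses of F1 and F2 females differed for 5 of 28 members, beside 13.8% of all genes. ZBTB16 and PIK3R1 had the more negative response in F2 females, and MAP3K6, TIPARP and MKNK2 the more positive. Between F1 and F3 females only PIK3R1 differed, 1 of 28 members beside 0.0981% of all genes. Between F2 and F3 females 0 of 28 differed by the quasi-likelihood test, the likelihood ratio test or DESeq2. Of all genes, 0.018%, 0.835% and 1.13% passed in the same order. By the quasi-likelihood test 2 of 28 had an unadjusted p below 0.05, beside 11.5% of all genes. Fold changes had the same sign in F1 and F2 females for 11 of 28 members (39.3%), beside 45.8% of all genes. For F1 and F3 females 18 of 28 agreed in sign (64.3%), beside 66.3%, and for F2 and F3 females 19 of 28 (67.9%), beside 58.1%. TSC22D3, KLF9 and TNFAIP3 were the 3 members with a positive fold change in all 4 tables, and NEDD9 was the 1 member with a negative fold change in all 4. Of 10725 genes tested in all tables, 8.22% were positive throughout and 10.4% negative throughout.

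The transcription factors of the list were 9 in number. KLF15 and FOXO1 were lower in F1 sGC females, and 0 of 9 passed the FDR in any other table. KLF15 is a Krüppel-like factor that directs the use of amino acids and fat under glucocorticoids. F1 control females held 12.5, 16.0, 14.0 and 11.5 CPM of KLF15 and F1 sGC females held 9.11, 10.3, 7.34 and 7.35 CPM. Every sGC female lay below every control female. The log2 fold change was -0.66 ± 0.15 (SE, FDR = 0.0225), and it stayed below the FDR threshold in 4 of 8 fits with 1 animal left out, the FDR being 0.0695 without control 3, 0.0526 without sGC 1, 0.0518 without sGC 3 and 0.0550 without sGC 4. F1 control males held 7.25, 6.18, 7.70, 6.42 and 7.98 CPM of KLF15 and sGC males ranged from 7.52 to 9.93 CPM with a median of 9.23 CPM. The male groups overlapped, with the sGC males in the upper part of the range and a log2 fold change of 0.32 ± 0.10 (SE, FDR = 0.0690). The female and male responses differed by 0.97 ± 0.18 (SE, FDR = 0.000695). KLF15 in F3 females was 19.4 to 20.0 CPM in controls and 17.1 to 19.0 CPM in sGC offspring, which did not overlap, with a log2 fold change of -0.15 ± 0.06 (SE, FDR = 0.262). F2 females overlapped, at 8.38 to 10.7 CPM in controls and 8.40 to 15.5 CPM in sGC offspring.

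FOXO1 is a forkhead factor that drives fasting and growth arrest genes when insulin signalling is low. Its level was 57.0, 33.2, 35.6 and 45.9 CPM in F1 control females and 21.8, 20.7, 22.7 and 29.4 CPM in F1 sGC females. All 4 sGC females were below all 4 controls, and controls 1 and 4 were the highest. The log2 fold change was -0.86 ± 0.18 (SE, FDR = 0.0182), and the FDR was 0.0561 without sGC 1. Controls 1 and 4 were also the 2 animals with the highest striatal marker sums. Within the F1 female controls and within the F1 sGC females the order of the animals by FOXO1 was their order by that sum. RASD1 had that order in both groups too, and PIK3R1, MKNK2 and KLF9 had it in the controls. The match was therefore not particular to FOXO1, and the share of all genes with it was not counted. With controls 1 and 4 left out the FOXO1 log2 fold change was -0.52 with an FDR of 0.0510. F3 control females held 32.2, 42.9, 46.3 and 36.5 CPM of FOXO1 and F3 sGC females 25.9, 30.5, 28.0 and 26.8 CPM. These groups did not overlap either, at a log2 fold change of -0.50 ± 0.11 (SE, FDR = 0.0632) that passed the likelihood ratio test (FDR = 0.00258) and DESeq2 (FDR = 0.00287). The F3 striatal marker sums were 334 to 1019 CPM in controls and 208 to 475 CPM in sGC females. The order of the F3 controls by FOXO1 was also their order by that sum. The orders did not match in the F3 sGC females, nor in either group of F2 females or F1 males. FOXO1 in F2 females overlapped between groups, at 19.7 to 32.0 CPM and 16.7 to 29.6 CPM. Control males held 16.6, 23.9, 25.4, 25.4 and 19.3 CPM and sGC males ranged from 20.4 to 26.3 CPM with a median of 23.5 CPM, with a log2 fold change of 0.08 ± 0.11 (SE, FDR = 0.695). The response differed between the sexes by 0.94 ± 0.21 (SE, FDR = 0.00325).

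ZBTB16, a zinc finger repressor strongly induced by glucocorticoids in many tissues, passed the FDR in no table, while the difference between its responses passed for F1 females against F1 males and against F2 females. F1 control females held 33.7, 28.6, 33.4 and 33.8 CPM of ZBTB16 and F1 sGC females 43.7, 56.0, 35.0 and 35.1 CPM. The sGC females were all above the controls, of which control 2 was the lowest, at a log2 fold change of 0.39 ± 0.15 (SE, FDR = 0.102). F1 control males held 46.7, 47.9, 74.0, 68.8 and 48.5 CPM and sGC males ranged from 33.7 to 54.7 CPM with a median of 38.0 CPM. Male groups overlapped through 1 sGC animal, and the log2 fold change was -0.51 ± 0.15 (SE, FDR = 0.0503). The sexes differed in response by -0.91 ± 0.24 (SE, FDR = 0.00780). Control F2 females held 56.4, 58.3, 68.8 and 58.6 CPM of ZBTB16 and sGC F2 females 39.0, 54.2, 33.3 and 55.1 CPM, with every sGC animal below every control. Their log2 fold change was -0.42 ± 0.15 (SE, FDR = 0.207), and the F1 and F2 female responses differed by -0.81 ± 0.23 (SE, FDR = 0.0309). That difference was lost without F1 control 2, F1 sGC 1 or 2, F2 control 3 or F2 sGC 1, at FDRs of 0.0511 to 0.0633. In F3 females ZBTB16 was 30.6 to 40.7 CPM in controls and 26.3 to 38.8 CPM in sGC offspring.

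TSC22D3 encodes GILZ, a leucine zipper protein that carries much of the anti-inflammatory action of glucocorticoids and is among their most used target genes. It did not pass the FDR in any table. TSC22D3 in F1 control females was 82.0, 86.7, 92.1 and 100.5 CPM and in F1 sGC females 104, 99.6, 91.9 and 103 CPM. The groups overlapped, with the sGC females in the upper part, at a log2 fold change of 0.14 ± 0.07 (SE, FDR = 0.203). Log2 fold changes of TSC22D3 were 0.15 in F2 females (FDR = 0.346), 0.07 in F3 females (FDR = 0.669) and 0.06 in F1 males (FDR = 0.411). Control males held 76.7, 81.9, 71.7, 79.8 and 80.3 CPM of TSC22D3 and sGC males ranged from 77.6 to 84.0 CPM with a median of 82.0 CPM. These 11 animals lay close together. KLF9, a Krüppel-like factor induced by glucocorticoids and thyroid hormone in neurons, also passed in no table. Its level was 209.7, 159.9, 171 and 191 CPM in F1 control females and 184, 189, 217 and 217 CPM in F1 sGC females, with overlapping groups. KLF9 in control males was 188, 205, 145, 168 and 183 CPM, and in sGC males it ranged from 176 to 199.7 CPM with a median of 186 CPM. Its log2 fold changes were 0.14, 0.15, 0.20 and 0.08 in F1, F2 and F3 females and F1 males, with FDRs from 0.322 to 0.606.

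The 4 other transcription factors also passed the FDR in no table. The lymphoid repressor BCL6 had log2 fold changes from -0.17 to 0.01, the liver and inflammation factor CEBPB from -0.13 to 0.13, and the forkhead factor FOXO3 from -0.11 to 0.07. FOXO3 therefore stayed near 0 where FOXO1 was lower. HIF3A, an inhibitory subunit of the hypoxia-inducible factors, had a log2 fold change of -0.39 in F1 females, 0.06 in F2 females, -0.30 in F3 females and -0.06 in F1 males. F3 groups overlapped narrowly, since controls held 11.5 to 12.9 CPM and sGC offspring 8.19 to 11.6 CPM.

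**Figure D3:**
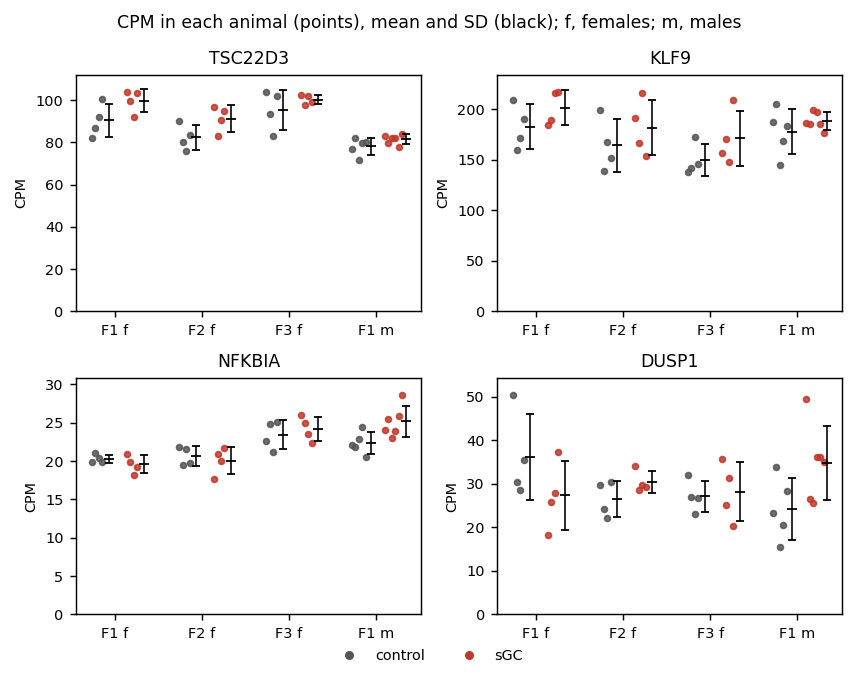
CPM of TSC22D3, KLF9, NFKBIA and DUSP1 in every animal (points, grey for control and red for sGC) with the mean and SD of each group in black, for F1, F2 and F3 females and F1 males along the horizontal axis. Control and sGC points overlap for TSC22D3, KLF9 and NFKBIA in every table, and DUSP1 spreads from 15.5 to 33.9 CPM in control males and from 25.7 to 49.3 CPM in sGC males.

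Among the 7 signalling members, PIK3R1 rose and MKNK2 fell in F1 sGC females, and MAP3K6 rose in F1 sGC males. PIK3R1 encodes the p85 alpha regulatory subunit of phosphoinositide 3-kinase, which couples insulin and growth factor receptors to that enzyme. PIK3R1 in F1 control females was 265, 231, 246 and 259.6 CPM and in F1 sGC females 350.2, 315, 369 and 352 CPM. The gap between the highest control and the lowest sGC female was wide, and the log2 fold change was 0.47 ± 0.07 (SE, FDR = 0.00508), below the threshold in all 8 fits with 1 animal left out. Control males held 346, 328, 396, 348 and 341 CPM of PIK3R1 and sGC males ranged from 307 to 339 CPM with a median of 319.5 CPM. The male groups overlapped, and their log2 fold change was -0.13 ± 0.05 (SE, FDR = 0.108). F2 females had 334 to 403 CPM in controls and 284 to 353 CPM in sGC offspring, and F3 females 309 to 323 CPM and 311 to 326 CPM. The 4 F1 control females thus lay below the animals of every other group in the 4 tables, although levels are not scaled between tables. Against F1 females, the PIK3R1 response differed by -0.61 ± 0.08 (SE, FDR = 6.76e-05) in F1 males, -0.66 ± 0.11 (SE, FDR = 0.00307) in F2 females and -0.48 ± 0.08 (SE, FDR = 0.0314) in F3 females. The F3 difference held in 7 of 16 fits with 1 animal left out, with an FDR of up to 0.0844 without F3 sGC 4. It was lost without F1 controls 3 or 4, F1 sGC 1, F3 controls 1, 2 or 4, or F3 sGC 1, 2 or 4.

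MKNK2, a kinase that phosphorylates the translation initiation factor eIF4E, was 37.8, 31.3, 31.9 and 34.0 CPM in F1 control females and 24.1, 26.4, 24.7 and 26.9 CPM in F1 sGC females. The groups did not overlap and the log2 fold change was -0.40 ± 0.08 (SE, FDR = 0.0125). With controls 1 and 4 left out it was -0.28 with an FDR of 0.0533. Control males held 28.0, 30.3, 29.4, 32.1 and 31.3 CPM of MKNK2, and sGC males ranged from 29.6 to 35.7 CPM with a median of 32.5 CPM. Males overlapped, at a log2 fold change of 0.11 ± 0.06 (SE, FDR = 0.294), and the sexes differed by 0.50 ± 0.10 (SE, FDR = 0.000953). F2 females overlapped too, at 27.1 to 29.7 CPM in controls and 26.8 to 32.0 CPM in sGC offspring, and their response differed from that of F1 females by 0.42 ± 0.11 (SE, FDR = 0.0242). This difference was lost with F1 controls 1 and 4 left out (FDR = 0.0765) and with the replicate block (FDR = 0.0518). MKNK2 in F3 females was 31.7 to 35.9 CPM in controls and 26.6 to 34.5 CPM in sGC offspring.

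MAP3K6 is a stress-activated kinase upstream of JNK and p38. F1 control females held 27.0, 89.9, 55.9 and 41.7 CPM of MAP3K6 and F1 sGC females 34.2, 39.8, 20.2 and 31.9 CPM. Control 2 was the highest and the groups overlapped, at a log2 fold change of -0.76 ± 0.35 (SE, FDR = 0.154). Control males held 44.7, 41.7, 25.8, 27.5 and 47.3 CPM of MAP3K6, and sGC males ranged from 47.5 to 77.7 CPM with a median of 61.1 CPM. Every sGC male was above every control male, and the log2 fold change was 0.72 ± 0.17 (SE, FDR = 0.0183), with an FDR of 0.0531 in a single fit of all 8 groups. In F2 females the level was 32.2, 21.8, 20.4 and 23.7 CPM in controls and 55.9, 33.4, 50.9 and 45.4 CPM in sGC offspring. The F2 groups did not overlap, and the log2 fold change was 0.92 ± 0.17 (SE, FDR = 0.0506), just above the threshold, with an FDR of 8.03e-05 in the likelihood ratio test and 6.00e-05 in DESeq2. F3 control females held 173, 68.7, 120.0 and 83.9 CPM and F3 sGC females 116, 139, 123 and 139 CPM, with controls spread on both sides of the sGC animals. The MAP3K6 response of F1 females differed from that of F1 males by 1.48 ± 0.38 (SE, FDR = 0.00672) and from that of F2 females by 1.67 ± 0.41 (SE, FDR = 0.0181).

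DUSP1, a phosphatase that switches off MAP kinases, had overlapping groups in every table. DUSP1 in F1 control females was 50.3, 30.5, 28.6 and 35.4 CPM and in F1 sGC females 18.3, 25.8, 28.0 and 37.4 CPM, with a log2 fold change of -0.41 ± 0.23 (SE, FDR = 0.249). Control males held 23.2, 33.9, 15.5, 20.5 and 28.2 CPM, and sGC males ranged from 25.7 to 49.3 CPM with a median of 35.5 CPM, with a log2 fold change of 0.52 ± 0.20 (SE, FDR = 0.119). The difference between the sexes was 0.92 ± 0.33 (SE, FDR = 0.0411), but it held in only 7 of 19 fits with 1 animal left out, being lost without F1 control females 1 or 4, F1 sGC females 1, 2 or 3, control males 1, 3 or 4, or sGC males 1, 4, 5 or 6, with an FDR of up to 0.102 without F1 control female 1. With F1 control females 1 and 4 both left out its FDR was 0.201. DUSP1 is also an activity-induced gene. Of 12 immediate early genes tested beside it, 1 was lower in F1 sGC females (BTG2, log2 fold change -0.74, FDR = 0.0435) and 0 of 12 passed in F2 females, F3 females or F1 males, where 1, 1 and 3 had an unadjusted p below 0.05.

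The 3 remaining signalling members passed the FDR in no table. ERRFI1, a feedback inhibitor of the EGF receptor, ranged in log2 fold change from -0.29 in F1 females to 0.40 in F2 females. NEDD9, a focal adhesion scaffold, ranged from -0.31 in F3 females to -0.08 in F1 males. RASD1, a dexamethasone-induced Ras-like GTPase, was 83.0, 97.7, 92.7 and 96.0 CPM in F3 control females and 117, 104, 107 and 117 CPM in F3 sGC females, which did not overlap. Its log2 fold change there was 0.27 ± 0.07 (SE, FDR = 0.0759), and it was 0.19 in F1 females, -0.12 in F2 females and -0.07 in F1 males.

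The 3 inhibitors of inflammatory signalling, NFKBIA, TNFAIP3 and ZFP36, passed the FDR in no table. NFKBIA holds NF-kappa B in the cytoplasm. NFKBIA in F1 control females was 19.8, 21.0, 20.4 and 19.9 CPM and in F1 sGC females 21.0, 19.9, 18.1 and 19.3 CPM, a narrow range with overlapping groups. Control males held 22.1, 21.8, 22.9, 24.5 and 20.5 CPM and sGC males ranged from 23.0 to 28.6 CPM with a median of 24.8 CPM. The log2 fold change was -0.05 ± 0.07 (SE, FDR = 0.609) in F1 females and 0.17 ± 0.06 (SE, FDR = 0.118) in F1 males. TNFAIP3, the ubiquitin-editing enzyme A20, had log2 fold changes of 0.24, 0.16, 0.27 and 0.26 in F1, F2 and F3 females and F1 males at levels of 3.76 to 6.58 CPM. All 4 were positive. ZFP36, which destabilises inflammatory messenger RNAs, was at 0.470 to 2.27 CPM and its log2 fold change ran from -0.47 in F1 females to 0.36 in F3 females. Microglial markers, beside which these genes are read, were lower for 4 of 6 tested in F1 sGC females and passed in 0 of 6, 0 of 7 and 0 of 7 in F2 females, F3 females and F1 males.

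The cell cycle and growth arrest members were CDKN1A, DDIT4 and SESN1. DDIT4 and SESN1 were lower in F1 sGC females, CDKN1A was higher in F1 sGC males, and 0 of 3 passed the FDR in F2 or F3 females. DDIT4 (REDD1) restrains mTORC1 under glucocorticoids and stress. F1 control females held 26.3, 34.4, 26.4 and 23.3 CPM of DDIT4 and F1 sGC females 20.9, 18.1, 15.3 and 19.4 CPM. Each sGC female was below each control, control 2 was the highest, and the log2 fold change was -0.58 ± 0.14 (SE, FDR = 0.0239), with an FDR of 0.0603 without control 3 and 0.0509 without sGC 3. Control males held 16.0, 16.7, 19.6, 17.8 and 18.3 CPM, and sGC males ranged from 18.8 to 22.7 CPM with a median of 20.2 CPM. The male groups overlapped, with a log2 fold change of 0.22 ± 0.07 (SE, FDR = 0.0609). DDIT4 differed in response between the sexes by 0.80 ± 0.14 (SE, FDR = 0.000581). Its log2 fold change was -0.10 in F2 females and -0.06 in F3 females.

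SESN1, a sestrin that also restrains mTORC1, was 30.7, 33.9, 31.4 and 30.9 CPM in F1 control females and 26.4, 24.4, 22.2 and 25.1 CPM in F1 sGC females. The groups were well apart, and the log2 fold change was -0.37 ± 0.07 (SE, FDR = 0.0123), below the threshold in all 8 fits with 1 animal left out. F3 control females held 51.2, 48.2, 51.7 and 49.4 CPM and F3 sGC females 46.4, 46.3, 42.6 and 45.4 CPM, which did not overlap, at a smaller log2 fold change of -0.15 ± 0.05 (SE, FDR = 0.179). F2 females overlapped, at 27.8 to 32.8 CPM in controls and 20.6 to 29.7 CPM in sGC offspring, with a log2 fold change of -0.22 ± 0.11 (SE, FDR = 0.344). Control males held 21.8, 19.6, 24.5, 24.9 and 20.4 CPM of SESN1, and sGC males ranged from 21.9 to 24.7 CPM with a median of 23.0 CPM. The sGC males lay inside the range of the controls, and the sexes differed by 0.42 ± 0.10 (SE, FDR = 0.00406).

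CDKN1A encodes p21, an inhibitor of cyclin-dependent kinases. Control males held 16.0, 19.2, 18.7, 19.8 and 18.4 CPM, and sGC males ranged from 19.2 to 30.4 CPM with a median of 26.0 CPM. Only sGC male 6, at the lowest sGC level, fell among the controls, and the log2 fold change was 0.49 ± 0.10 (SE, FDR = 0.0118), below the threshold in all 11 fits with 1 animal left out. CDKN1A in F1 control females was 25.6, 26.1, 20.8 and 17.2 CPM and in F1 sGC females 21.5, 19.6, 17.4 and 18.2 CPM, with a log2 fold change of -0.22 ± 0.14 (SE, FDR = 0.275). The female groups overlapped, and the sexes differed by 0.71 ± 0.18 (SE, FDR = 0.00599). CDKN1A in F2 and F3 females overlapped between groups, at log2 fold changes of -0.16 and -0.00.

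PDK4, TXNIP, XDH and ANGPTL4 were the metabolic members listed, and PDK4 and TXNIP rose in F1 sGC males. PDK4 inhibits pyruvate dehydrogenase and so spares glucose. Control males held 14.5, 14.2, 13.3, 16.3 and 14.6 CPM of PDK4, and sGC males ranged from 20.1 to 30.5 CPM with a median of 26.5 CPM. Every sGC male was above every control male, at a log2 fold change of 0.82 ± 0.10 (SE, FDR = 0.00285), the smallest FDR of a member in males. PDK4 in F1 control females was 19.3, 39.6, 36.0 and 29.4 CPM and in F1 sGC females 19.1, 26.5, 12.3 and 14.1 CPM. Control 1 lay among the sGC females, and the log2 fold change was -0.79 ± 0.28 (SE, FDR = 0.0819). It passed the likelihood ratio test (FDR = 0.0339) and DESeq2 (FDR = 0.0305), and the quasi-likelihood test in 2 of 8 fits with 1 animal left out. The sexes differed in PDK4 by 1.60 ± 0.28 (SE, FDR = 0.000426), the widest among the members in the comparison of the sexes. F2 and F3 females gave log2 fold changes of 0.08 and -0.02.

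TXNIP binds thioredoxin and limits glucose uptake. Control males held 46.8, 53.5, 39.0, 33.7 and 54.7 CPM of TXNIP, and sGC males ranged from 56.5 to 102 CPM with a median of 72.4 CPM. The male groups did not overlap, and the log2 fold change was 0.73 ± 0.15 (SE, FDR = 0.0118). TXNIP in F1 control females was 46.6, 116, 64.8 and 58.8 CPM and in F1 sGC females 29.4, 58.2, 22.2 and 56.0 CPM. Control 2 stood highest and the groups overlapped, at a log2 fold change of -0.79 ± 0.37 (SE, FDR = 0.163). The sexes differed by 1.51 ± 0.38 (SE, FDR = 0.00618). F3 control females held 219.5, 90.8, 138 and 109 CPM and F3 sGC females 184, 184, 180.3 and 174 CPM, and their log2 fold change was 0.37 ± 0.23 (SE, FDR = 0.446). F3 controls varied far more than F3 sGC females, while F2 females overlapped at a log2 fold change of 0.28. XDH, which makes uric acid from purines, was at 2.77 to 7.41 CPM with log2 fold changes of -0.23 in F1 females and 0.29 in F1 males. ANGPTL4, an inhibitor of lipoprotein lipase, was at 0.117 to 2.05 CPM in the 2 tables that list it and passed in neither, at log2 fold changes of 0.33 in F3 females and 0.77 in F1 males.

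**Figure D4:**
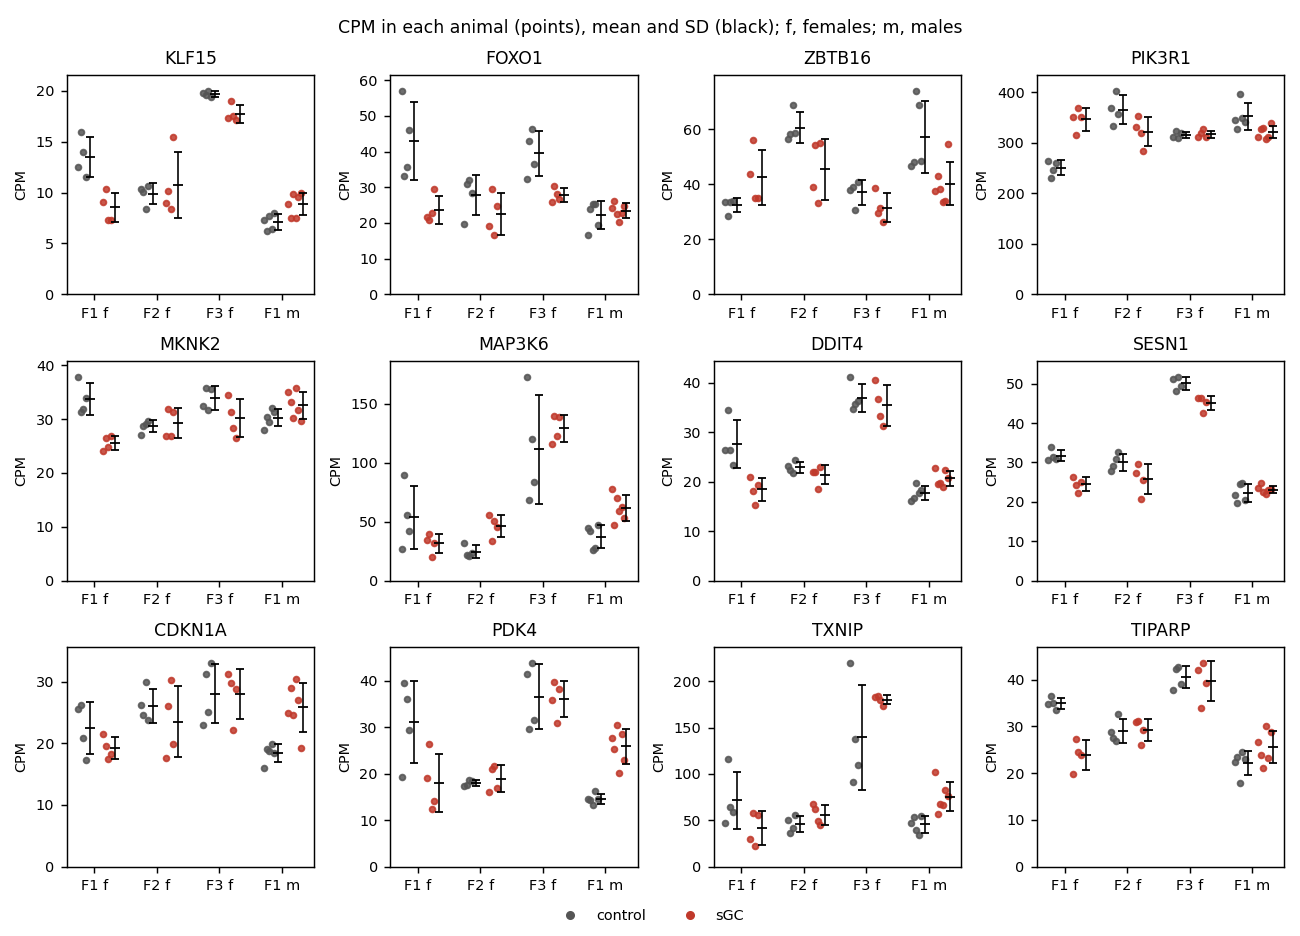
CPM of 12 members in every animal (points, grey for control and red for sGC) with the mean and SD of each group in black, for F1, F2 and F3 females and F1 males along the horizontal axis. The F1 female groups do not overlap for KLF15, FOXO1, ZBTB16, PIK3R1, MKNK2, DDIT4, SESN1 and TIPARP, and the F1 male groups do not overlap for PDK4, TXNIP and MAP3K6.

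In some groups the animals had the same order by PDK4, TXNIP or MAP3K6 as by their oligodendrocyte markers. Summed over 10 markers (9 in F3 females), F1 control females held 4817, 16303, 10439 and 8184 CPM and F1 sGC females 6497, 7671, 3791 and 6316 CPM. F1 control males held 6833, 6202, 3655, 3837 and 6934 CPM, and sGC males ranged from 7792 to 13325 CPM with a median of 10776 CPM, which did not overlap. The order of the F1 control females was the same by MAP3K6, TXNIP, PDK4 and the oligodendrocyte sum. SESN1, TNFAIP3 and CRISPLD2 had that order too, so it was not particular to MAP3K6, TXNIP and PDK4. The share of all genes with that order was not counted. The order of the F3 controls was the same by MAP3K6, TXNIP and that sum, and of the control males by MAP3K6 and the sum. Among the sGC females, PDK4 and MAP3K6 followed the sum in F1 and PDK4 in F3. None of PDK4, TXNIP and MAP3K6 followed its order in F2 females or within the sGC males. Per 1000 CPM of the oligodendrocyte sum, MAP3K6 was 5.09 to 5.61 CPM in F1 control females and 5.05 to 5.33 CPM in F1 sGC females. It was 5.55 to 7.03 and 4.33 to 6.69 CPM in F2 females, 20.4 to 21.4 and 17.4 to 21.5 CPM in F3 females, and 6.54 to 7.16 and 5.30 to 6.27 CPM in F1 males. The log2 ratio of the group means, sGC over control, was -0.05 in F1 females, -0.10 in F2 females, -0.12 in F3 females and -0.24 in F1 males. The groups overlapped in the 3 female tables, with the highest F3 ratio in an sGC animal, and in males every sGC animal was below every control. The same ratio was 2.10 to 4.26 CPM in control males and 1.93 to 3.25 CPM in sGC males for PDK4, and 6.84 to 10.7 and 6.10 to 8.15 CPM for TXNIP. For PDK4 the log2 ratio of the group means was -0.18, -0.90, -0.47 and -0.22 in F1, F2 and F3 females and F1 males. For TXNIP it was -0.17, -0.67, 0.035 and -0.27 in the same order. These ratios were chosen after the values were seen and carry no test, and the part of the markers in the results was not tested. F2 females differ in that their oligodendrocyte sums were 3377 to 5221 CPM in controls and 4995 to 11767 CPM in sGC offspring while PDK4 was 17.2 to 18.6 and 16.1 to 21.7 CPM.

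**Figure D5:**
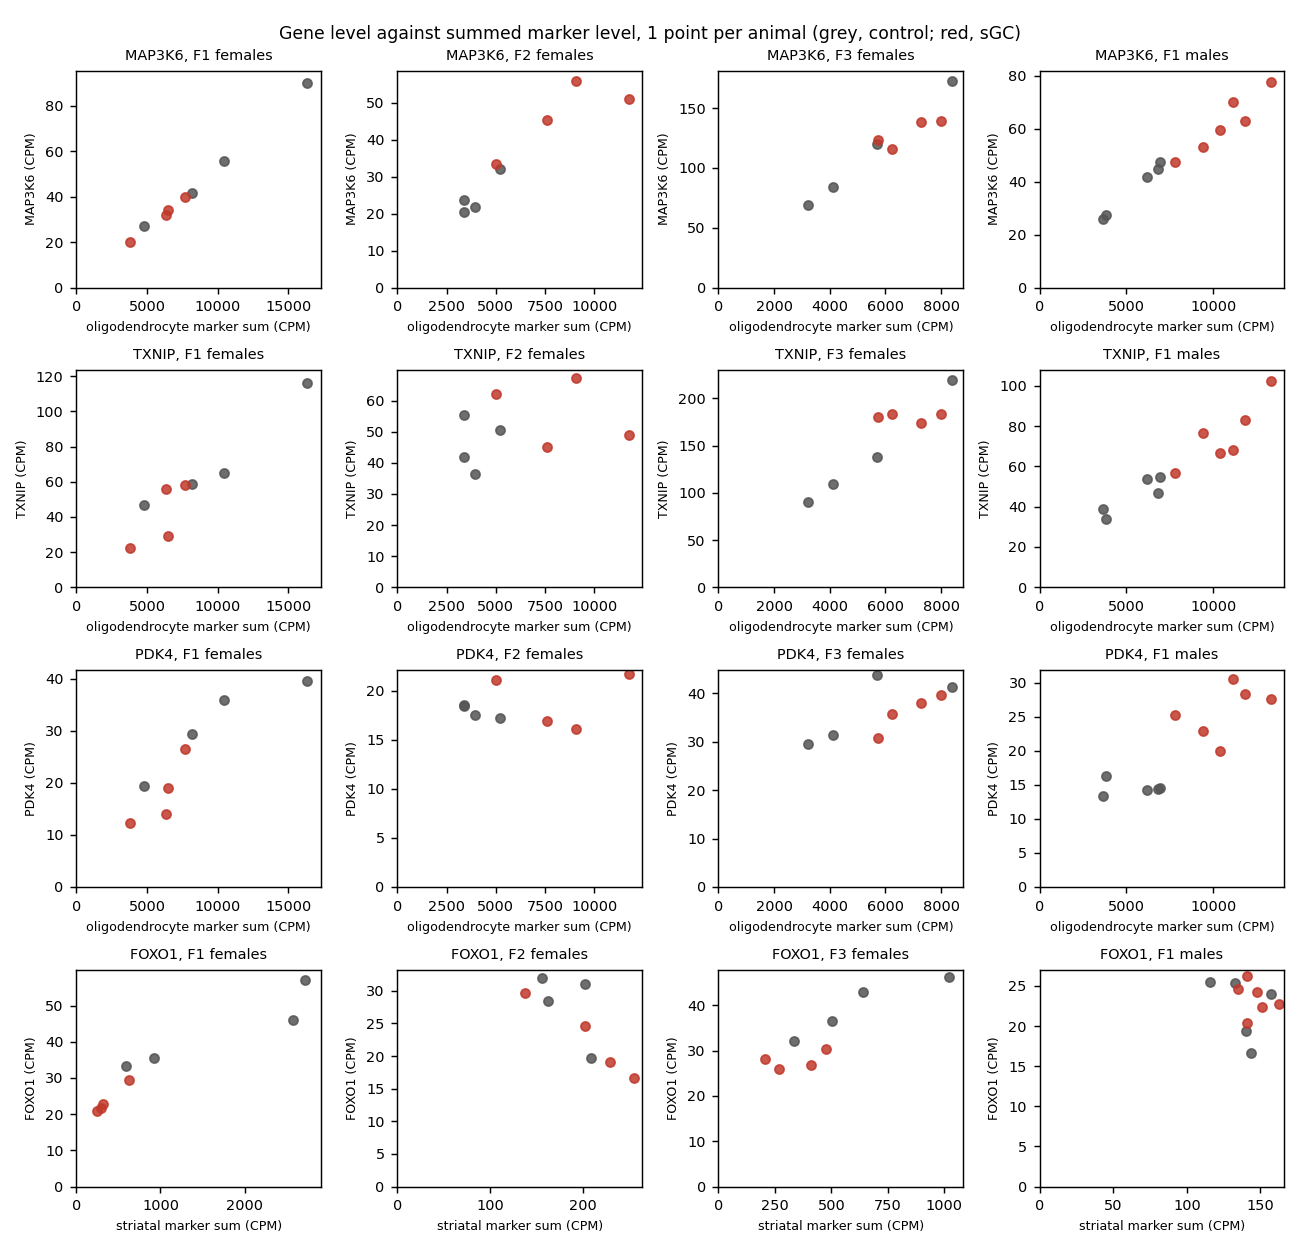
CPM of MAP3K6, TXNIP and PDK4 against the summed CPM of the oligodendrocyte markers (upper 3 rows) and of FOXO1 against the summed CPM of the striatal markers (lowest row), 1 point per animal, grey for control and red for sGC, with a column for each table. The animal with the highest oligodendrocyte sum has the highest MAP3K6 level in F1 females, F3 females and F1 males, at 89.9, 173 and 77.7 CPM.

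The last 3 members with values were TIPARP, ADARB1 and CRISPLD2. TIPARP, an ADP-ribosyltransferase that restrains the aryl hydrocarbon receptor, was 34.7, 36.4, 35.0 and 33.5 CPM in F1 control females and 19.8, 27.4, 24.6 and 23.8 CPM in F1 sGC females. Controls lay within a narrow range above all sGC females, and the log2 fold change was -0.55 ± 0.09 (SE, FDR = 0.00854), below the threshold in all 8 fits with 1 animal left out. Control males held 22.3, 23.4, 17.9, 24.5 and 23.0 CPM of TIPARP, and sGC males ranged from 21.1 to 30.0 CPM with a median of 25.3 CPM, with a log2 fold change of 0.20 ± 0.10 (SE, FDR = 0.230). Male groups overlapped. The TIPARP response of F1 females differed from that of F1 males by 0.74 ± 0.15 (SE, FDR = 0.00135) and from that of F2 females by 0.56 ± 0.13 (SE, FDR = 0.0139). F2 controls held 26.8 to 32.5 CPM and F2 sGC females 26.0 to 31.1 CPM, and F3 groups overlapped at a log2 fold change of -0.03.

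ADARB1, which edits adenosine to inosine in neuronal transcripts, was 40.2 to 47.6 CPM in F3 control females and 49.7 to 61.2 CPM in F3 sGC females, which did not overlap, at a log2 fold change of 0.32 ± 0.08 (SE, FDR = 0.0765). It was 0.39 ± 0.14 (SE, FDR = 0.0901) in F1 females and -0.12 ± 0.09 (SE, FDR = 0.438) in F1 males, and the sexes differed by -0.52 ± 0.17 (SE, FDR = 0.0275), a difference lost without F1 control females 2, 3 or 4 or F1 sGC female 3, at FDRs of 0.0548 to 0.0727. The secreted CRISPLD2 was at 2.28 to 6.18 CPM, with log2 fold changes from -0.31 in F3 females to 0.31 in F1 females.

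Of 22 genes of the glucocorticoid receptor pathway, 20 were tested in each table, and 1, the chaperone HSP90AA1, passed the FDR in F1 females, where 16.5% of all genes passed. At an unadjusted p below 0.05, 4 of the 20 were higher and 1 was lower in F1 females. HSP90AA1 was 1987 to 2111 CPM in F1 control females and 2337 to 2516 CPM in F1 sGC females, which did not overlap, at a log2 fold change of 0.27 ± 0.05 (SE, FDR = 0.0130). None of the 20 passed by this test elsewhere, with 2 in F2 females, 2 in F3 females and 3 in F1 males at an unadjusted p below 0.05. NR3C1 itself was 80.7 to 86.6 CPM in F1 control females and 70.3 to 82.0 CPM in F1 sGC females, and its log2 fold changes were -0.12, -0.09, -0.02 and -0.04 in F1, F2 and F3 females and F1 males. FKBP5, a co-chaperone that lowers receptor affinity and is itself a target, had log2 fold changes of 0.07, -0.05, 0.01 and 0.16 in the same order. Neither gene passed the FDR in any table, where their FDRs ran from 0.199 to 0.984.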

How the data were processed

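The 4 tables deposited by the authors hold raw read counts for each gene symbol, from single-end TruSeq mRNA libraries of 35 animals. Per the methods, 1 animal of a sex was taken from a litter for the female offspring. Whether any of the males shared a litter is not stated, and the main fits treat all animals as independent. For the read processing, the submitters' processing notes name TopHat2 and edgeR. The read counter, the genome build and the annotation are not given in the sources used here. Total counts per library were 12819964 to 31763585. Further columns hold the authors' own comparison of sGC with control (a fold change, a mean level, a test statistic, a p and an adjusted p) and were not used.

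The rule for members was a list of symbols matched without regard to case. Members and gene lists were chosen with earlier results of these data known. In each table, genes were filtered (filterByExpr, minimum count 10, minimum total 15), scaled by TMM and tested with edgeR 4.0.16 (quasi-likelihood F test, R 4.3.3), the p-values adjusted over all genes tested (FDR). The SE is the absolute log2 fold change divided by the square root of F. Differences in response are the interaction of treatment and table. Values of every animal are given for the 12 members with the smallest FDR and for 8 widely used targets, of which SGK1 was not listed. Marker sums add the CPM of the listed markers of a cell type. Alternatives were the likelihood ratio test, which the study used, DESeq2 1.42.0, RLE and upper-quartile scaling, other filters on low counts, the replicate number as a block, 1 fit across the 8 groups and each animal left out. Scripts were tested on simulated data. No sequence was read, so response elements in promoters were not analysed here.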

Additional observations from a re-analysis of the deposited data

Results flagged for a closer look

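The members with values of every animal gave 128 sets, each of 1 gene in 1 of the 8 groups, and 1 of these held an animal far from the others, where chance alone places about 1 in 20. F1 control female 2 had 28.57 CPM of ZBTB16, below the nearest control at 33.42 CPM, a gap of 0.931 of the range of the group.

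The response to sGC differed between F1 females and F1 males for 14 of 28 members by the interaction test (edgeR quasi-likelihood test, FDR < 0.05), beside 31.7% of all genes. The male minus female difference in log2 fold change was positive for 11 of them, at 0.92 for DUSP1, 0.97 for KLF15, 0.71 for CDKN1A, 0.80 for DDIT4, 1.60 for PDK4, 1.51 for TXNIP, 1.48 for MAP3K6, 0.74 for TIPARP, 0.94 for FOXO1, 0.42 for SESN1 and 0.50 for MKNK2. It was negative for 3, at -0.91 for ZBTB16, -0.61 for PIK3R1 and -0.52 for ADARB1. With 1 animal left out, it held in 7 of 19 fits for DUSP1 and in 15 of 19 for ADARB1.

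Between F1 and F2 females the response differed for 5 of 28 members, beside 13.8% of all genes. The F2 minus F1 difference was 1.67 for MAP3K6, 0.56 for TIPARP and 0.42 for MKNK2, and -0.81 for ZBTB16 and -0.66 for PIK3R1. With 1 animal left out, that of ZBTB16 held in 11 of 16 fits. Between F1 and F3 females the response differed for PIK3R1 alone, at -0.48, 1 of 28 members beside 0.0981% of all genes. This difference held in 7 of 16 fits with 1 animal left out. These 3 sets of tests share the 8 F1 females, so they are not independent of each other.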

How the results depend on the processing

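The number of members passing the FDR was recomputed with other tests, scalings and filters. For 31 results, each of 1 member that passed the FDR in the main fit, 717 alternative values were computed. Of these values, 671 kept their direction and their side of the threshold, 46 kept their direction but missed the threshold, and 0 reversed. The results were picked for passing and the alternatives reuse the same animals, so the agreement in direction carries little weight. For F1 females the count of 7 became 8 in the likelihood ratio test and 9 in DESeq2, beside 18.6% and 21.5% of all genes. In a single fit of all 8 groups it became 11, beside 30.4%. With 1 animal left out it was 5 to 9, beside 5.42% to 18.7%. For F2 females the count of 0 became 1 (MAP3K6) in the likelihood ratio test and in DESeq2, beside 4.8% and 4.25% of all genes. The same gene passed with upper-quartile scaling and without a filter on low counts, beside 0.629% and 0.669%. With 1 animal left out the F2 count was 0 to 1, beside 0% to 4.36%. For F3 females the count of 0 became 3 in the likelihood ratio test and 3 in DESeq2, beside 5.39% and 5.53% of all genes. With 1 animal left out it was 0 to 2 (FOXO1 and TXNIP without control 1), beside 0.175% to 5.22%. For F1 males the count of 4 became 7 in the likelihood ratio test and 7 in DESeq2 (ZBTB16 lower, KLF15 and DDIT4 higher beside the 4). Of all genes, 12.2% and 13.8% passed in those tests. With 1 animal left out the male count was 4 to 6, beside 5.8% to 14% of all genes. The difference between F1 females and F1 males stood at 12 to 14 members with 1 animal left out, beside 26.7% to 32.1% of all genes. Between F1 and F2 females the count of 5 became 8 in the likelihood ratio test, beside 15.4% of all genes. It was also 8 with the 2 F1 controls of highest striatal level left out, beside 17.6%. With 1 animal left out it was 4 to 7, beside 7.23% to 17.1%. Between F1 and F3 females the count of 1 became 2 in the likelihood ratio test and 2 in DESeq2 (TIPARP beside PIK3R1). Of all genes, 1.02% and 1.79% passed in those tests. The count was 2 with those controls left out (KLF15 beside PIK3R1), where 3.29% of all genes passed. With 1 animal left out it was 0 to 1, beside 0.00891% to 0.865%. The cause of these moves was not tested. The median log2 fold change of the members was -0.27 to -0.15 over the other scalings, filters and fits without 1 animal in F1 females, -0.07 to 0.01 in F2 females, -0.03 to 0.05 in F3 females and 0.08 to 0.14 in F1 males, and 4 of 51 values moved by more than 1 SD of the replicates, namely without F1 female control 1, sGC 3 or sGC 4 and without F3 female sGC 3.

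The labels do not say whether same-numbered animals of the groups share more than a number. The correlations of their deviations ran from -0.333 to 0.371, and only replicate 2 of F1 females correlated best with its own number. With so few animals a group these correlations cannot settle the question. With the replicate block the count was 7 in F1 females, 1 in F2 females, 0 in F3 females and 5 in F1 males. Of all genes, 9.58%, 0.476%, 0.587% and 8.68% passed in the same order. The difference in response counted 13 members for F1 females and F1 males and 5 for F1 and F2 females. It counted 0 for F1 and F3 females and 0 for F2 and F3 females. Beside these 4 counts stood 26.9%, 9.56%, 0% and 0.0808% of all genes. The block took the FDR of PIK3R1 between F1 and F3 females to 0.149, of ZBTB16 and MKNK2 between F1 and F2 females to 0.0677 and 0.0518, and of DUSP1 between the sexes to 0.0719.

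With 4 females a group, small changes cannot be told from the spread between animals, and the female libraries hold fewer counts than the male ones, which limits members of low level such as ZFP36. Counts over all genes moved by over 1.5 times as follows. In F1 females 1864 genes passed, 3327 in the single fit and 1080 with the replicate block. In F2 females the 31 genes became 534 in the likelihood ratio test, 473 in DESeq2, 70 with upper-quartile scaling, 76 without a filter, 53 with the block and 10 in the single fit. In F3 females the 153 became 616 in the likelihood ratio test, 632 in DESeq2, 67 with the block and 396 in the single fit. The 11 genes whose response differed between F1 and F3 females became 114 in the likelihood ratio test, 201 in DESeq2, 18 with upper-quartile scaling, 0 with the block and 369 with the 2 controls left out. Between F2 and F3 females the 2 became 93 in the likelihood ratio test, 126 in DESeq2, 4 with RLE or upper-quartile scaling and 9 with the block.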
